A study of Homo sapiens with 36 samples.

Results

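The genes described here are those with an editing value in every arm of cells that carried YTHDF1 fused to ADAR. The authors' deposited editing table for these cells lists 7829 genes, and 7800 of them have a value in YTHDF1 RIP, YTHDF2 RIP, YTHDF3 RIP and input. These 7800 genes are called members below, and the other 29 genes lack a value in 1 or more arms. The question is whether RNA that carries edits from the YTHDF1 fusion is also found with YTHDF2 and YTHDF3.

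The cells were HEK293T, a human embryonic kidney line, of the YTHDF1-ADAR genotype. All libraries compared here, inputs included, came from cells whose fusion was switched on with doxycycline at 1 ug/mL for 24 h, so there is no arm without the fusion. The groups were an RNA immunoprecipitation (RIP) of endogenous YTHDF2, a RIP of endogenous YTHDF3, each with its own antibody, and input RNA from a fraction of the lysate, with 3 libraries in each. The labels do not say whether the replicates were separate cultures. The p-values of the RNA comparisons rest on the spread within groups, estimated over all 36 libraries of the series in 12 groups, other fusion lines included. That spread may be technical. No RIP with a control antibody was used here, so RNA that sticks to beads or antibody cannot be told apart from RNA held by a reader.

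N6-methyladenosine (m6A) is a mark on adenosines of mRNA, written by a complex around METTL3 and METTL14 and bound by the YTH domain of the cytoplasmic readers YTHDF1, YTHDF2 and YTHDF3. YTHDF2 is best known for recruiting the CCR4-NOT deadenylase to mRNA, while all 3 readers are close paralogs that bind similar sites. ADAR enzymes turn adenosine into inosine, which sequencing reads as guanosine. A reader fused to ADAR therefore leaves edited bases on RNAs it has met, an approach called TRIBE. When RNA pulled down with a second reader carries the edits of the first, the same RNA molecules have met both proteins at some time, though not necessarily at once. That reading holds only if the fusion made the edits and the second reader held the RNA. Native ADAR also edits RNA, and 16 of 24 known native ADAR targets were members (66.7%). Of all protein-coding genes tested for RNA 48.7% were members, and of the more abundant ones 73.5%, as given below. With no arm without the fusion and no control antibody, neither condition could be tested here.

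An editing level is given here for each member and arm as the score of the table divided by the number of edited sites of the gene, as a percent. The table has 1 value an arm for all replicates, so each level has no error, the depth behind it is unknown, and differences in level are described without a test. The members held 127846 sites in all, with a median of 6 sites a gene, quartiles of 2 and 18, and a maximum of 617 in EPPK1. A single site was all that 1419 members had, and 4492 had 5 or more. Of the 7800 members, 7788 matched 1 Ensembl gene, all of them protein coding, and the RNA of 7783 passed the filter on low counts. Members made up 48.7% of the 15966 protein-coding genes tested for RNA, and 73.5% of those with a mean log2 CPM (the read count scaled to library size) of at least 4. Their RNA was more abundant and longer, with a median log2 CPM of 5.55 and a median exon length of 5716 bases, against 2.64 and 4086 bases in the other protein-coding genes tested.

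Counts per library ran from 15.9 to 27.2 M in YTHDF2 RIP, from 28.4 to 37.5 M in YTHDF3 RIP and from 20.7 to 30.3 M in input. YTHDF2 RIP replicate 3 and input replicate 1 stood apart from their groups: protein-coding genes took 82.8% of the counts in that YTHDF2 RIP library against 90.0% and 90.3% in the other two, and small nucleolar RNAs took 0.564% there and 0.348% in input replicate 1. The share of protein-coding genes was 90.4% to 91.2% in YTHDF3 RIP and 71.5% to 72.4% at input, and members alone took 65.7% to 72.2% of the counts in YTHDF2 RIP and 72.9% to 73.9% in YTHDF3 RIP, against 51.2% to 52.7% at input. The part of this gap in the RNA comparisons was not tested. RNA results without both libraries are given where they differ, whereas the pooled editing levels cannot be recomputed without them. YTHDF1 averaged 634 ± 97.4 CPM at input in YTHDF1-ADAR cells, against 87.9 ± 2.03 CPM in YTHDF2-ADAR cells and 94.0 ± 5.10 CPM in YTHDF3-ADAR cells (SD, n = 3 each), as the labels say of the fusion. The 6 HEK293T markers summed to between 1714 and 2759 CPM in the 9 libraries, while markers of blood, hepatocytes and endothelium summed to 0.301 CPM at most. The fibroblast list reached 37.0 CPM, nearly all of it COL1A1, with DCN and LUM at or near 0.

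Members were more edited in the YTHDF2 RIP than at input. The median editing level was 3.39% in YTHDF2 RIP (quartiles 1.57% and 5.70%) and 2.50% at input (quartiles 1.19% and 4.3%). The level was higher in YTHDF2 RIP for 6051 members, lower for 1657 and equal for 92. That is 77.6% of members higher, near the 77.5% of all genes of the table with both values, since nearly all of that table are members. The median difference was 0.824 percentage points, with quartiles of 0.101 and 1.65 points, and the median ratio over the 7255 members above 0 in both arms was 1.33. Large differences were rare: 328 members were higher by 5 or more points (background 4.24%) and 74 were lower by as much (background 0.998%).

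The YTHDF3 RIP showed the same direction with a smaller median. Its median level was 3.18% (quartiles 1.59% and 5.37%), against the same 2.50% at input. The level was higher in YTHDF3 RIP for 5912 members, lower for 1853 and equal for 35, which is 75.8% higher, as in the 75.8% of all genes of the table with both values. The median difference was 0.609 points, with quartiles of 0.0226 and 1.36 points, and the median ratio was 1.24. There were 232 members higher by 5 or more points (background 2.99%) and 61 lower by as much (background 0.806%). Both comparisons use the same input values, so their directions are not independent of each other. For scale, the level in the YTHDF1 RIP, which targets the reader that is fused, had a median of 3.71% and was higher than at input for 6433 members. With 5 or more sites 92.9% were above input in YTHDF1 RIP and 90.2% in YTHDF2 RIP. With 50 or more sites the order turned, at 98.4% and 99.5%, with median levels of 4.41% and 4.57%.

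The 2 pulldowns were also set against each other. The level in YTHDF2 RIP was higher than in YTHDF3 RIP for 4719 members and lower for 3038, so that 60.5% were higher (background 60.5%) and 38.9% lower (background 39.0%). The median difference was 0.206 points and the median ratio 1.07. In 5127 members, or 65.7%, the 2 levels lay within 1 point of each other, while 49.7% lay within 1 point between YTHDF2 RIP and input and 58.4% between YTHDF3 RIP and input. A difference of 5 or more points was seen in 146 members with the higher level in YTHDF2 RIP (background 1.91%) and in 121 with the lower level there (background 1.6%). As a description across the 7800 genes, which share the libraries and are not replicates, the levels of the 2 pulldowns had a Pearson r of 0.892 and a Spearman rho of 0.870. Among the 632 members with 50 or more sites these were 0.968 and 0.966. The levels were nearly as close to those of input. Over all members the Pearson r with input was 0.870 for YTHDF2 RIP and 0.873 for YTHDF3 RIP, and the Spearman rho 0.840 and 0.844. With 50 or more sites the Pearson r with input was 0.949 and 0.944. High values between the pulldowns are thus not particular to them.

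**Figure D1:**
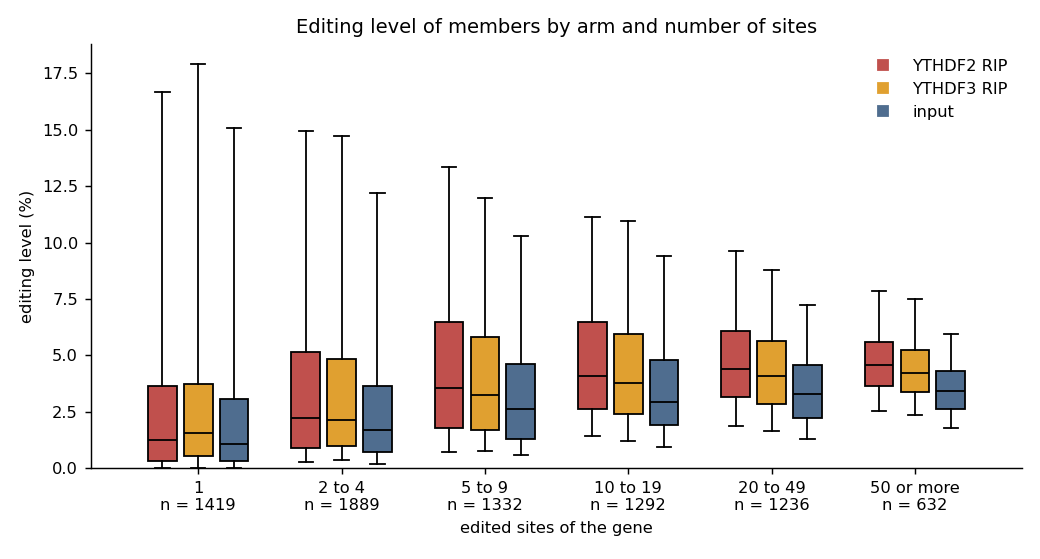
Editing level in percent (vertical axis) of members grouped by number of edited sites (horizontal axis), for YTHDF2 RIP, YTHDF3 RIP and input. Boxes span the quartiles, the line is the median, whiskers reach the 5th and 95th percentiles, and genes beyond them are not drawn; the medians stand at 4.57%, 4.22% and 3.44% for 50 or more sites.

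These differences were more regular in members with more sites. Among members with 1 site the level was higher in YTHDF2 RIP than at input in 54.2%, and among those with 2 to 4 sites in 65.2%. The share was 79.8% with 5 to 9 sites, 90.7% with 10 to 19, 96.0% with 20 to 49 and 99.5% with 50 or more, where only 3 of 632 members were lower. For YTHDF3 RIP against input the shares in the same order were 58.6%, 65.7%, 74.9%, 84.6%, 91.3% and 98.1%. The share with a higher level in YTHDF2 RIP than in YTHDF3 RIP was 47.0% at 1 site and 80.5% at 50 or more.

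The median difference was larger with more sites as well. It was 0.173 points for YTHDF2 RIP and 0.297 points for YTHDF3 RIP among members with 1 site, and 1.13 and 0.797 points among those with 50 or more. The spread narrowed at the same time: the quartiles of the YTHDF2 RIP difference were -0.664 and 1.37 points with 1 site, and 0.804 and 1.48 points with 50 or more. No member with 50 or more sites differed from input by 5 points in either pulldown. Other measures moved with the number of sites. From the group with 1 site to that with 50 or more, the median log2 CPM was 4.91 and 6.66, the median exon length was 4903 and 7669 bases, and the median input level was 1.08% and 3.44%; their part in the result was not tested.

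**Figure D2:**
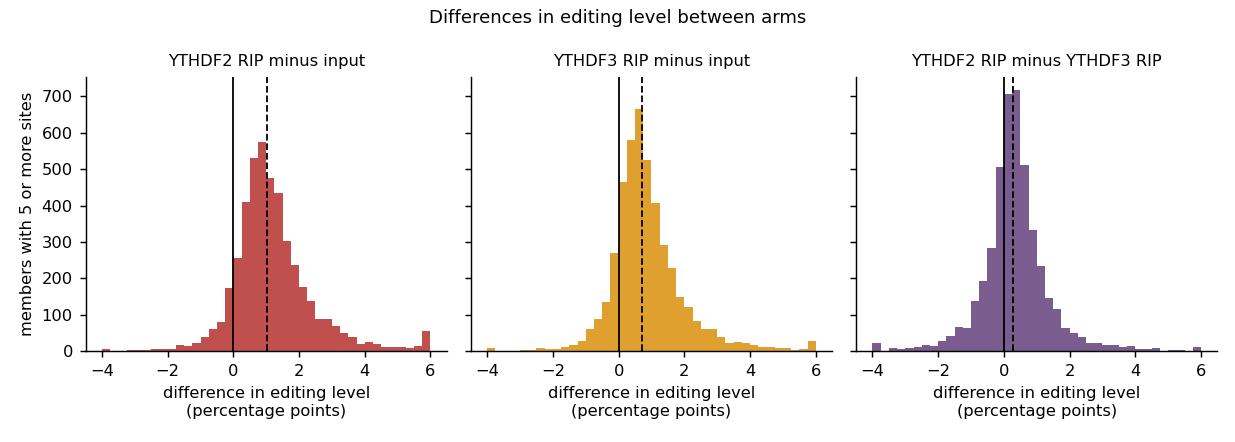
Differences in editing level, in percentage points, for the 4492 members with 5 or more sites; the vertical axis counts members, the solid line marks 0 and the dashed line the median, and the end bars hold all values beyond the axis. The medians are 1.01, 0.706 and 0.288 points, and most members lie right of 0 in the first 2 panels.

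Editing also varied with RNA abundance. Among members with 5 or more sites, those with a log2 CPM between 2 and 4 had median levels of 7.91% in YTHDF2 RIP, 7.39% in YTHDF3 RIP and 5.6% at input. Those at a log2 CPM of 8 or more had 3.41%, 3.07% and 2.64%. Across these groups the rarer RNAs had the higher levels, whereas 16 members below a log2 CPM of 2 had only 2.13%, 2.12% and 1.01%. The median differences from input at a log2 CPM of 2 to 4 and of 8 or more were 1.77 and 0.755 points for YTHDF2 RIP, and 1.38 and 0.418 points for YTHDF3 RIP. The share of members above input was 82.1% and 89.1% for YTHDF2 RIP and 79.0% and 84.3% for YTHDF3 RIP in those groups.

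The 8 members furthest above input in YTHDF2 RIP, among those with 5 or more sites, had input levels of 1.40% to 10.3%. EN1, a homeobox transcription factor (GRCh38 chr2:118842171-118847648, 5 sites), had a level of 15.5% in YTHDF2 RIP and 7.33% in YTHDF3 RIP, against 2.23% at input. TMEM74, which encodes a membrane protein linked to autophagy, had 14.3% in YTHDF2 RIP and 11.2% in YTHDF3 RIP, against 3.33% at input. MBD5, a protein with a methyl-CpG-binding domain, had 15.4% in YTHDF2 RIP and 10.9% in YTHDF3 RIP, against 4.73% at input. In each of these 3 the YTHDF3 RIP lay between the YTHDF2 RIP and input. EN1 and TMEM74 RNA was scarce, with a mean log2 CPM of 2.58 and 3.09, against a median of 5.55 for members. EN1 had 2.56, 3.93 and 2.88 CPM in YTHDF2 RIP and 4.63, 2.57 and 5.68 CPM at input, so its levels can rest on few reads. C17orf100, the calmodulin-binding transcription activator CAMTA1, the centrosomal NINL, the zinc finger gene ZNF554 and the ligand BMP8B made up the rest of the 8, which were 9.32 to 10.0 points above input in YTHDF2 RIP. ZNF554 was the member of this group with the smallest difference in YTHDF3 RIP, at 19.7% in YTHDF2 RIP and 10.6% in YTHDF3 RIP, against 10.3% at input. In the authors' deposited table, 1 of these 8 differences had an adjusted p under 0.05 (TMEM74, 0.0114), and that of EN1 was 0.0552. Exons of MBD5, C17orf100 and BMP8B share bases with other protein-coding genes (ORC4, SLC13A5 and PPIE), so values of these 3 are uncertain.

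TMEM74 was also among the 8 members furthest above input in YTHDF3 RIP, and the other 7 were different genes. PSMA1, an alpha subunit of the proteasome core (GRCh38 chr11:14504874-14643635, 11 sites), which shares exons with an unnamed coding gene, had a level of 12.3% in YTHDF2 RIP and 20.8% in YTHDF3 RIP, against 9.39% at input. TACC2, a coiled-coil protein of the centrosome, had 20.9% in YTHDF2 RIP and 22.3% in YTHDF3 RIP, against 12.7% at input. LPAR1, a receptor for lysophosphatidic acid, had 11.1% in YTHDF2 RIP and 18.5% in YTHDF3 RIP, against 9.0% at input. These 3 were higher in both pulldowns than at input, and PSMA1 and LPAR1 had differences of -8.47 and -7.40 points between YTHDF2 RIP and YTHDF3 RIP. The synaptic adhesion protein LRRC4 (19 sites) had 11.1% in YTHDF2 RIP and 13.9% in YTHDF3 RIP, against 5.25% at input. FLRT1 (15 sites), a leucine-rich repeat membrane protein, had 8.96% in YTHDF2 RIP and 10.9% in YTHDF3 RIP, against 3.21% at input. The glycolytic enzyme ENO1 and the chloride and proton exchanger CLCN5 were 8.16 and 8.15 points above input in YTHDF3 RIP. In the authors' deposited table, ENO1 was the 1 gene of these 8 with an adjusted p under 0.05 (0.0327).

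Some members were below input: of the 4492 with 5 or more sites, 442 were lower in YTHDF2 RIP and 652 in YTHDF3 RIP. RNF220, a ubiquitin ligase (GRCh38 chr1:44405194-44651724, 5 sites), had 3.41% in YTHDF2 RIP and 2.23% in YTHDF3 RIP, against 9.94% at input, and 14.2% in YTHDF1 RIP. NANOS1, an RNA-binding repressor of translation (13 sites), had 6.33% in YTHDF2 RIP and 5.54% in YTHDF3 RIP, against 12.1% at input. Both were thus less edited in the pulldowns of the other readers than in the whole lysate. Their exons share bases with a protein-coding gene on the opposite strand, TMEM53 for RNF220 and EIF3A for NANOS1, so RNA counts of these genes are uncertain. The other 6 lowest in YTHDF2 RIP (ZNF555, INHBB, KCNQ5, SETMAR, ANKRD36 and KMT2E) differed from input by -5.09 to -3.18 points. The other 6 lowest in YTHDF3 RIP (THEMIS2, ASXL3, ZNF468, ARHGAP12, RAB36 and ARHGEF3) differed by -5.65 to -4.36 points. None of these had an adjusted p under 0.05 for that arm in the authors' deposited table.

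**Figure D3:**
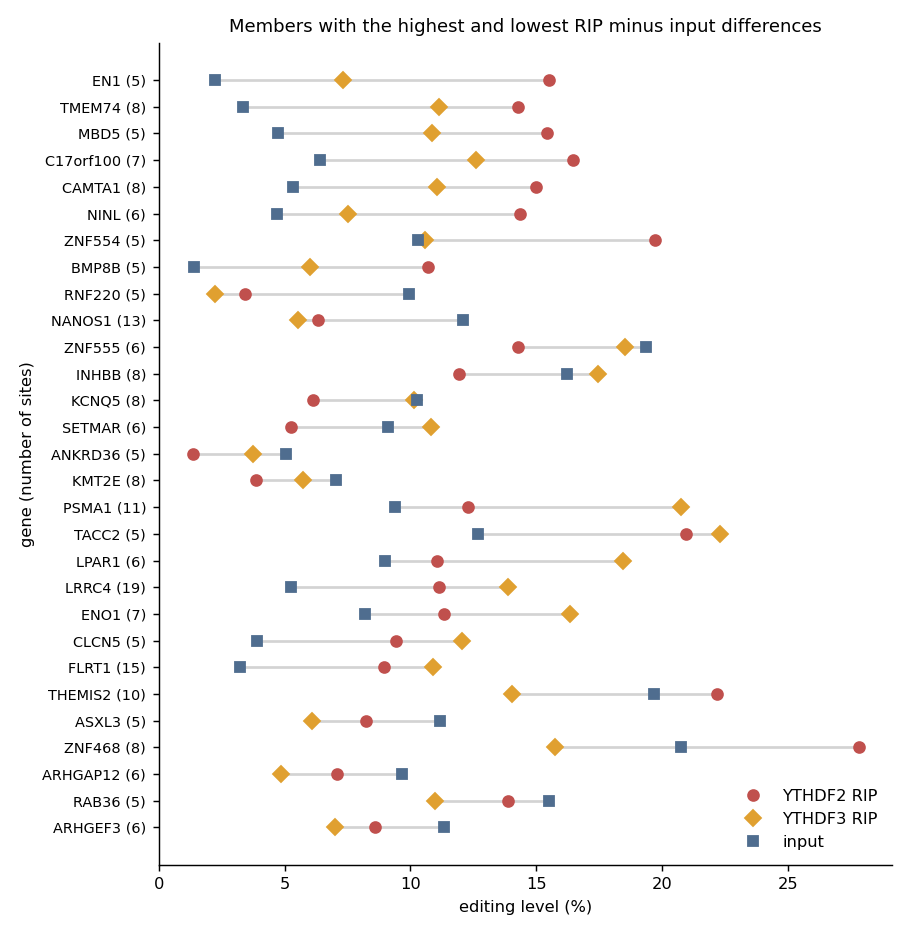
Editing level in percent (horizontal axis) in YTHDF2 RIP, YTHDF3 RIP and input for the members with the 8 highest and 8 lowest differences from input in each pulldown, with the number of sites in parentheses; each point is 1 pooled value. EN1 stands at 15.5%, 7.33% and 2.23%, and RNF220 at 3.41%, 2.23% and 9.94%.

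Some members separated the pulldowns. ZNF468, a zinc finger gene with 8 sites, had 27.8% in YTHDF2 RIP and 15.8% in YTHDF3 RIP, with 20.8% at input between them. RPRM, which encodes the p53-induced cell cycle regulator Reprimo, had 25.8% in YTHDF2 RIP and 17.6% in YTHDF3 RIP, with 19.5% at input. THEMIS2, a signalling adaptor of lymphocytes and myeloid cells, had 22.2% in YTHDF2 RIP and 14.0% in YTHDF3 RIP, with 19.7% at input. In these 3 members the YTHDF2 RIP stood above input and the YTHDF3 RIP below it. The reverse was seen for PARD6A, a cell polarity protein, with 5.71% in YTHDF2 RIP and 13.1% in YTHDF3 RIP, and 8.0% at input. EEF1AKMT3, a methyltransferase of elongation factor 1 alpha, likewise had 4.13% in YTHDF2 RIP and 10.8% in YTHDF3 RIP, and 6.94% at input. All of these carry 5 to 10 sites, exons of ZNF468 and EEF1AKMT3 overlap those of ZNF28 and METTL1, and none of the 632 members with 50 or more sites differed by 5 points between the pulldowns.

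**Figure D4:**
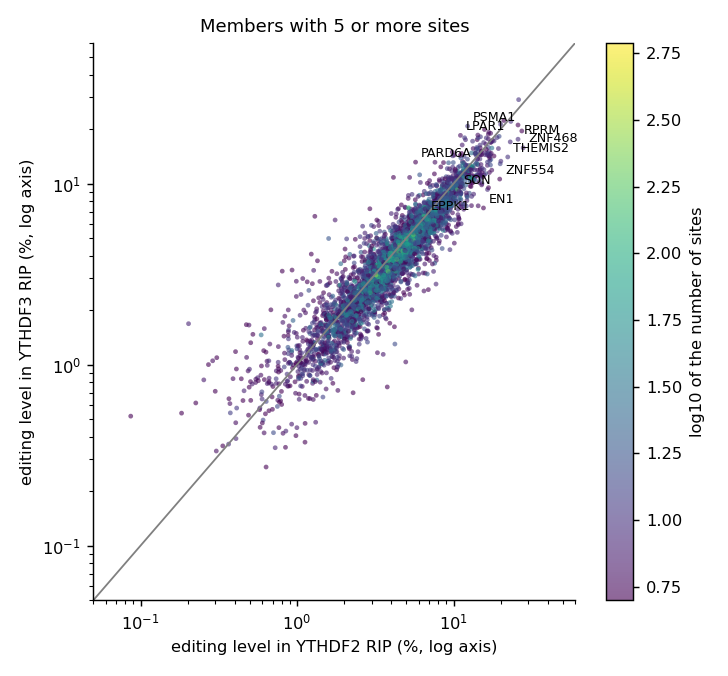
Editing level in YTHDF3 RIP (vertical log axis, percent) against YTHDF2 RIP (horizontal log axis, percent) for the 4492 members with 5 or more sites, coloured by the log10 of the number of sites; the line marks equal levels. EN1 (15.5% and 7.33%) lies below the line and PSMA1 (12.3% and 20.8%) above it, and genes with many sites lie near it.

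The 8 members with the most sites were 0.348 to 1.87 points above input in YTHDF2 RIP and 0.0720 to 2.09 points above it in YTHDF3 RIP. EPPK1, the plakin family protein epiplakin (617 sites), had 6.62% in YTHDF2 RIP and 6.67% in YTHDF3 RIP, against 6.28% at input. The cytoskeletal linker plectin, PLEC (411 sites), had 4.59% in YTHDF2 RIP and 4.35% in YTHDF3 RIP, against 3.82% at input. FAT1, a giant cadherin (332 sites), had 5.31% in YTHDF2 RIP and 4.17% in YTHDF3 RIP, against 4.10% at input. The histone methyltransferase KMT2D (306 sites) stood at 3.76% in YTHDF2 RIP and 3.50% in YTHDF3 RIP, against 2.71% at input, and the transcription factor FOXK1, the Rab GTPase-activating TBC1D16 and the cadherin CELSR3 differed from input by 0.685 to 1.54 points. PUSL1, a pseudouridine synthase-like gene with 312 sites, had 4.3% in YTHDF2 RIP and 4.52% in YTHDF3 RIP, against 2.43% at input, but its exons overlap those of ACAP3 and INTS11 on the opposite strand.

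The authors' own calls were few. In the authors' deposited table, an adjusted p under 0.05 marked 126 members as higher in YTHDF2 RIP than at input (background 1.61% of the table) and 2 as lower (background 0.0255%). For YTHDF3 RIP the authors' deposited table marked 79 as higher (background 1.01%) and 9 as lower (background 0.115%), and the test behind these p-values is not given in the sources used here. The genes named in the rest of this paragraph were chosen after their values were seen. ZNF621, a zinc finger gene with 46 sites, had 4.29% in YTHDF2 RIP and 3.95% in YTHDF3 RIP, against 2.36% at input, with adjusted p of 1.62e-13 and 1.46e-13 in the authors' deposited table. RPL28, a protein of the large ribosomal subunit, had 2.85% in YTHDF2 RIP and 2.96% in YTHDF3 RIP, against 1.03% at input. RAD9A, of the DNA damage checkpoint clamp, had 2.53% in YTHDF2 RIP and 5.09% in YTHDF3 RIP, against 1.26% at input. The DNA helicase RECQL4 had 1.88% in YTHDF2 RIP and 2.74% in YTHDF3 RIP, against 0.914% at input. All 4 were above input in both pulldowns, and RAD9A and RECQL4 were higher in YTHDF3 RIP than in YTHDF2 RIP. RAD9A and CPEB1 share exons with other coding genes, so their values are uncertain. The lowest p among the lower calls in YTHDF2 RIP was that of LRRC47 (3 sites), with 0.573% in YTHDF2 RIP and 0.731% in YTHDF3 RIP, against 14.5% at input. The highest difference among the higher calls lay in CPEB1, a protein that binds cytoplasmic polyadenylation elements, whose 1 site had 74.3% in YTHDF2 RIP and 71.8% in YTHDF3 RIP, against 30.9% at input.

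The genes of m6A readers, m6A writers and RNA editors were members too. YTHDF1 itself (43 sites) had 11.7% in YTHDF2 RIP and 11.9% in YTHDF3 RIP, against 11.1% at input. YTHDF2 (5 sites) had 5.41% in YTHDF2 RIP and 6.17% in YTHDF3 RIP, against 4.37% at input. YTHDF3 (12 sites) had 4.28% in YTHDF2 RIP and 4.12% in YTHDF3 RIP, against 3.36% at input. All 3 of these reader mRNAs were above input in both pulldowns. METTL14 (5 sites) had 1.34% in YTHDF2 RIP and 1.79% in YTHDF3 RIP, against 1.18% at input. METTL3 (5 sites), whose exons overlap those of TOX4, had 1.13% in YTHDF2 RIP and 0.473% in YTHDF3 RIP, against 0.577% at input, so that only the YTHDF2 RIP was above input. ADAR, the gene of ADAR1, had 5.59% in YTHDF2 RIP and 4.98% in YTHDF3 RIP, against 4.95% at input. ADARB1, the gene of ADAR2, had 5.10% in YTHDF2 RIP and 5.72% in YTHDF3 RIP, against 6.65% at input, below input in both. ADARB1 averaged 521 ± 40.0 CPM at input in YTHDF1-ADAR cells, against 58.2 ± 2.0 CPM in YTHDF2-ADAR cells and 2092 ± 56.6 CPM in YTHDF3-ADAR cells (SD, n = 3 each). Reads of a fusion transcript cannot be told apart from those of the native YTHDF1 and ADARB1 genes in these counts.

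Of 24 mRNAs often used as examples of m6A modification 22 were members. Of these, 22 were higher in YTHDF2 RIP and 21 in YTHDF3 RIP than at input. They had a median of 27 sites, and among all members with 20 to 49 sites 96.0% and 91.3% were higher, against 77.6% and 75.8% over members of any number of sites. The list had median differences of 0.975 and 0.666 points, against 0.824 and 0.609 over all members. SON, a nuclear speckle protein with 156 sites (GRCh38 chr21:33543038-33577481) whose exons overlap those of DONSON, had 10.6% in YTHDF2 RIP and 9.29% in YTHDF3 RIP, against 7.92% at input. CREBBP, an acetyltransferase coactivator, had 5.76% in YTHDF2 RIP and 5.24% in YTHDF3 RIP, against 4.84% at input. MYC, the transcription factor, had 3.84% in YTHDF2 RIP and 3.19% in YTHDF3 RIP, against 2.98% at input. These 3 were highest in YTHDF2 RIP. Of 10 mRNAs used as controls with little m6A only ACTB and RPL13A were members, with 1 and 2 sites, and GAPDH and HPRT1 were not. ACTB, cytoplasmic actin, had 0.823% in YTHDF2 RIP and 0.460% in YTHDF3 RIP, against 0.473% at input. ACTB does not stand for both controls. Over the 2 of them the median difference from input was 1.21 points in YTHDF2 RIP and 0.744 points in YTHDF3 RIP. Both were above input in YTHDF2 RIP and 1 was in YTHDF3 RIP. With so few members and sites, the controls cannot be compared with the examples.

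The counts of the other lists are read beside the 77.6% of all members above input in YTHDF2 RIP and the 75.8% in YTHDF3 RIP. These shares depended on the number of sites. They were 65.2% and 65.7% with 2 to 4 sites, and 79.8% and 74.9% with 5 to 9. Of 43 chromatin coregulators that were members, 40 were higher in YTHDF2 RIP and 38 in YTHDF3 RIP than at input (93.0% and 88.4%), with a median of 34 sites, and all members with 20 to 49 sites had 96.0% and 91.3%. Of 31 signalling and developmental receptors, with a median of 30 sites, 30 and 28 were higher (96.8% and 90.3%), among them NOTCH2, with 8.07% in YTHDF2 RIP and 6.91% in YTHDF3 RIP, against 6.19% at input. Of 268 ZNF zinc finger genes, 221 and 230 were higher (82.5% and 85.8%). They had a median of 12 sites, and all members with 10 to 19 sites had 90.7% and 84.6%. The median levels of the ZNF genes were 5.01% in YTHDF2 RIP and 4.42% in YTHDF3 RIP, against 3.43% at input. Of 22 genes of m6A writers, erasers and readers, with a median of 6 sites, 19 and 18 were higher. The lists named next had medians of 5 to 7 sites, except the secretory pathway genes, with 3. Of 20 CCR4-NOT and decapping genes 16 and 14, of 12 stress granule genes 9 and 9, of 16 known native ADAR targets 13 and 11, of 18 immediate-early genes 15 and 15, and of 26 secretory pathway genes 20 and 16 were higher in YTHDF2 RIP and in YTHDF3 RIP. Histone genes drawn by symbol, most of whose mRNAs lack a poly(A) tail, had the lowest share above input in YTHDF2 RIP of the 13 lists, with 14 of 24 higher there and 15 in YTHDF3 RIP. Their median levels were 1.20% in YTHDF2 RIP and 1.19% in YTHDF3 RIP, against 1.37% at input, while the medians of the gene-by-gene differences were above 0, at 0.128 and 0.257 points. The histone list had a median of 2 sites, and its shares above input were 58.3% and 62.5%. Among all members these shares were 54.2% and 58.6% with 1 site, and 65.2% and 65.7% with 2 to 4. Histone genes have near-identical copies, so their values are uncertain.

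RNA abundance of the members was then compared between arms, since RIP also changes how much of an RNA is present. Values are log2 fold changes ± SE from edgeR's quasi-likelihood test, after scaling by trimmed mean of M-values (TMM). They are thus relative to a trimmed average over genes, and are neither amounts of RNA nor plain shares of the reads. Calls have an adjusted p under 0.05 over 31849 genes. In YTHDF2 RIP, 1944 members were higher than at input (25.0%, background 8.66% of all genes tested) and 1346 were lower (17.3%, background 15.5%). Members are abundant RNAs, and at a log2 CPM of at least 4 the shares were 27.6% and 16.7% of members, with backgrounds of 21.7% and 23.5% over all genes at that level (45.3% in either direction). In YTHDF3 RIP, 2314 members were higher than at input (29.7%, background 11.5%) and 1773 lower (22.8%, background 20.1%). At a log2 CPM of at least 4 these shares were 32.7% and 21.6% of members, with backgrounds of 26.4% and 28.3% (54.7% in either direction). Genes at that level that were not members were more often lower than higher, at 37.0% against 10.2% in YTHDF2 RIP and 41.4% against 14.1% in YTHDF3 RIP. The median log2 fold change of members was 0.08 in YTHDF2 RIP and 0.09 in YTHDF3 RIP, against -0.11 and -0.23 over all genes tested.

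The balance of higher and lower calls depended on the scaling and on single libraries. Of the 3290 members called in YTHDF2 RIP (background 24.1%), 59.1% were higher by TMM, against 77.1% by total counts, 70.0% by DESeq2 and 70.2% without the filter on low counts. Of the 4087 called in YTHDF3 RIP (background 31.6%), 56.6% were higher by TMM, 77.1% by total counts, 65.1% by DESeq2 and 62.5% without the filter. Scaling by total counts put the median of all genes at 0.09 in YTHDF2 RIP and 0.04 in YTHDF3 RIP. With each library left out in turn, the share of higher calls ran from 50.7% to 76.2% in YTHDF2 RIP and from 55.1% to 76.4% in YTHDF3 RIP, the extremes being set by input replicate 1 and YTHDF2 RIP replicate 3, and by input replicate 1 and YTHDF3 RIP replicate 2. The count in YTHDF2 RIP was 2184 when the YTHDF1-ADAR libraries were fitted alone.

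**Figure D5:**
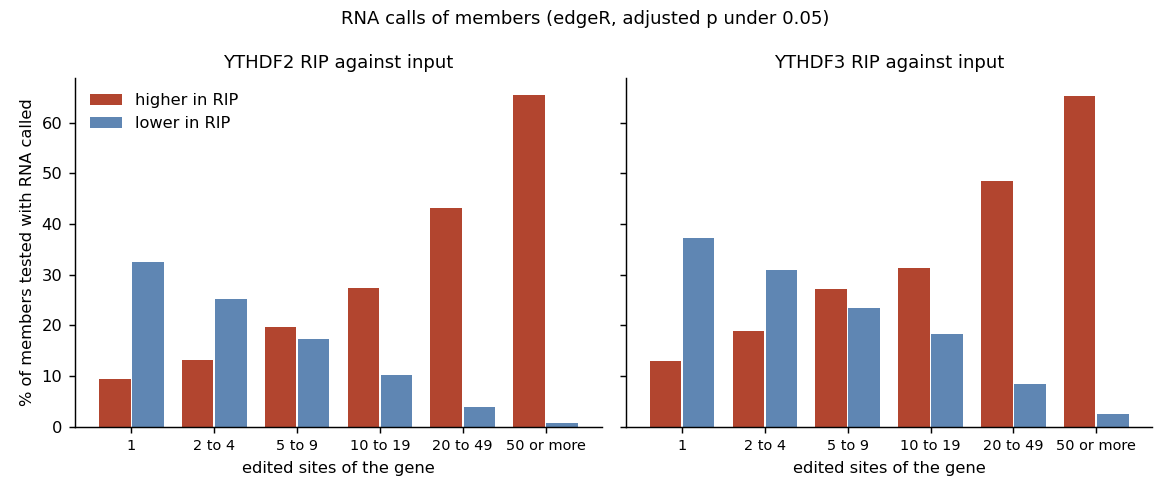
Percent of members whose RNA was called higher or lower in a pulldown than at input (vertical axis, edgeR, adjusted p under 0.05), by number of edited sites (horizontal axis). Higher calls reach 65.5% and 65.3% at 50 or more sites, and lower calls are most common at 1 site, at 32.6% and 37.2%.

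RNA enrichment followed the number of edited sites. Among members with 1 site, 9.40% were called higher in YTHDF2 RIP and 32.6% lower. Among those with 50 or more sites, 65.5% were called higher and 0.792% lower. In YTHDF3 RIP the higher and lower shares were 12.9% and 37.2% with 1 site, and 65.3% and 2.54% with 50 or more. The median log2 fold change likewise stood at -0.25 in YTHDF2 RIP and -0.28 in YTHDF3 RIP with 1 site, and at 0.57 and 0.62 with 50 or more. Sites can only be seen where RNA is read, and RNA abundance and exon length moved with the number of sites as given above.

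The difference in editing was of similar size in members whose RNA was enriched and in those whose RNA was not. Among members with 5 or more sites, the median difference of YTHDF2 RIP from input was 0.998 points in 1562 members whose RNA was higher there, 1.05 points in 2511 not called and 0.907 points in 412 whose RNA was lower. The share above input was 93.5%, 88.7% and 86.4% in these groups. Their median numbers of sites were 26.5, 14 and 9, and this share rose with the number of sites over all members. The median ratios to input ran the other way, at 1.33, 1.35 and 1.37. The part of the number of sites was not tested. In YTHDF3 RIP the median difference was 0.710 points in 1777 members with higher RNA, 0.724 points in 2043 not called and 0.648 points in 665 with lower RNA. Editing and RNA values come from the same libraries, so this is a description.

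Of 26 ribosomal protein members, the RNA of 21 fell in YTHDF2 RIP and that of 22 in YTHDF3 RIP, and the other 5 and 4 did not pass the test. Over all genes tested at a log2 CPM of at least 4, 23.5% were lower in YTHDF2 RIP and 28.3% in YTHDF3 RIP. The editing level of these 26 members was above input in 21 in YTHDF2 RIP (80.8%, against 77.6% of all members). In YTHDF3 RIP it was above input in 17 (65.4%, against 75.8% of all members). They had a median of 2 sites, and of all members with 2 to 4 sites 65.2% and 65.7% were above input. These counts of falls ran from 20 to 22 in YTHDF2 RIP and from 20 to 24 in YTHDF3 RIP under total counts, DESeq2, no filter and without both libraries that stood apart. The median log2 fold changes were -1.32 in YTHDF2 RIP and -1.86 in YTHDF3 RIP. RPL28 had 164, 162 and 71.3 CPM in YTHDF2 RIP and 79.1, 84.6 and 58.7 CPM in YTHDF3 RIP, against 179, 294 and 323 CPM at input. Its editing level was 2.85% in YTHDF2 RIP and 2.96% in YTHDF3 RIP, against 1.03% at input, while its RNA fell by 1.00 ± 0.23 in YTHDF2 RIP (adjusted p = 0.00095) and by 1.84 ± 0.23 in YTHDF3 RIP (adjusted p = 8.93e-08, edgeR). No library of either pulldown reached the lowest input library. The list was drawn by symbol and includes RPL7L1, which is not a core ribosomal protein, and ribosomal protein genes have many pseudogene copies that share reads. Histone members fell as well, 14 of 24 in YTHDF2 RIP and 19 of 24 in YTHDF3 RIP, with medians of -1.32 and -2.54, and the other 10 and 5 did not pass the test.

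RNA of 28 of 43 chromatin coregulators rose in YTHDF2 RIP and that of 40 of 43 in YTHDF3 RIP, while the other 15 and 3 did not pass the test. Over all genes tested at a log2 CPM of at least 4, 21.7% were higher in YTHDF2 RIP and 26.4% in YTHDF3 RIP. The coregulators had a median of 34 sites. Of all members with 20 to 49 sites 43.2% and 48.5% were higher, and of those with 50 or more 65.5% and 65.3%. The median log2 fold changes of the coregulators were 0.52 and 0.92. They were 0.70 and 1.20 by total counts, and 0.63 and 1.03 by DESeq2. Both of these scalings also raised the median of all genes tested in each pulldown, so they are no check on the direction. KMT2D had 714, 833 and 524 CPM in YTHDF2 RIP and 927, 993 and 793 CPM in YTHDF3 RIP, against 480.1, 415 and 370.4 CPM at input. It rose by 0.71 ± 0.19 in YTHDF2 RIP (adjusted p = 0.00429) and by 1.10 ± 0.19 in YTHDF3 RIP (adjusted p = 1.68e-05, edgeR), with no overlap between either pulldown and input. Of the signalling receptors 19 of 31 rose in each pulldown. NOTCH2 had 824, 802 and 734 CPM in YTHDF2 RIP and 838, 794 and 755 CPM in YTHDF3 RIP, against 317, 376 and 340 CPM at input, with log2 fold changes of 1.19 ± 0.15 and 1.21 ± 0.15. The examples of m6A-modified mRNAs rose in 13 of 22 and 12 of 22, and fell in 1 of 22 in each. The YTHDF2 RIP of SON overlapped input, at 982, 1334 and 507 CPM in YTHDF2 RIP against 568, 666 and 543 CPM at input, and its call there was lost without YTHDF2 RIP replicate 2 (0.39, adjusted p = 0.23, edgeR) and without input replicate 1 (0.62, adjusted p = 0.0504, edgeR). CREBBP was much alike, and its YTHDF2 RIP call was lost without YTHDF2 RIP replicate 2 (0.42, adjusted p = 0.11, edgeR).

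The remaining lists held calls in both directions, and the background at a log2 CPM of at least 4 was 21.7% higher and 23.5% lower in YTHDF2 RIP, and 26.4% higher and 28.3% lower in YTHDF3 RIP. ZNF genes rose in 63 and fell in 35 of 268 in YTHDF2 RIP by TMM, 109 and 14 by total counts and 100 and 25 by DESeq2. In YTHDF3 RIP they rose in 108 and fell in 26 by TMM, 176 and 10 by total counts and 137 and 22 by DESeq2. Genes of writers, erasers and readers rose in 7 and fell in 3 of 22 in YTHDF2 RIP, and rose in 9 and fell in 3 in YTHDF3 RIP. The secretory pathway, whose mRNAs are translated at the endoplasmic reticulum, rose in 3 and fell in 12 of 26 in YTHDF2 RIP, and rose in 3 and fell in 11 in YTHDF3 RIP. CCR4-NOT and decapping genes rose in 5 and fell in 6 of 20 in YTHDF2 RIP by TMM, a balance of 7 and 3 by total counts, and rose in 6 and fell in 4 in YTHDF3 RIP. Immediate-early genes rose in 5 and fell in 2 of 18 in YTHDF2 RIP by TMM, 8 and 0 by total counts. In YTHDF3 RIP 1 rose and 1 fell by TMM, against 5 and 0 by total counts and 1 and 3 without both libraries that stood apart. Native ADAR targets rose in 5 and fell in 6 of 16 in YTHDF2 RIP by TMM, 6 and 4 by total counts, and rose in 5 and fell in 3 in YTHDF3 RIP. Stress granule genes rose in 2 and fell in 2 of 12 in YTHDF2 RIP, and 5 rose in YTHDF3 RIP. ACTB and RPL13A fell in both pulldowns, but in YTHDF2 RIP the ACTB call was lost without YTHDF2 RIP replicate 3 (-0.46, adjusted p = 0.142, edgeR) and without input replicate 2 (-0.63, adjusted p = 0.0598, edgeR), and the RPL13A call without input replicate 3 (-0.70, adjusted p = 0.0673, edgeR).

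The lowest RNA fold changes were in members with 1 to 3 sites. TXN, the redox protein thioredoxin, had 17.0, 16.1 and 12 CPM in YTHDF2 RIP and 10.4, 11.8 and 9.61 CPM in YTHDF3 RIP, against 132, 156 and 194 CPM at input. It fell by 3.41 ± 0.20 in YTHDF2 RIP (adjusted p = 5.31e-14) and by 3.92 ± 0.21 in YTHDF3 RIP (adjusted p = 6.82e-16, edgeR), and every pulldown library lay far below input. Its 1 site had 22.4% in YTHDF2 RIP and 6.38% in YTHDF3 RIP, against 11.8% at input. RPS13, COX7C, H2AC20 and RPL39 completed the 5 lowest in YTHDF2 RIP, with falls of 2.65 to 3.09. The 5 highest in YTHDF2 RIP were MRFAP1, WDR6, COPRS, THOC3 and ZNF778, with rises of 1.62 to 2.12, and exons of WDR6 overlap those of DALRD3. Among members with many sites, FAT1 had 452, 497 and 344 CPM in YTHDF2 RIP and 469, 417 and 461 CPM in YTHDF3 RIP, against 164, 201 and 189 CPM at input. It rose by 1.23 ± 0.16 and 1.28 ± 0.16, with no overlap.

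RNA abundance also differed between the pulldowns. Between YTHDF2 RIP and YTHDF3 RIP, 1507 members were higher (19.4%, background 10.7%) and 1337 lower (17.2%, background 8.51%) in YTHDF2 RIP. At a log2 CPM of at least 4 the shares were 19.9% and 18.4%, near the backgrounds of 20.8% and 17.3%. This balance of 53.0% higher calls was 42.1% by total counts and 63.6% without the filter, and ran from 39.9% to 62.2% with each library left out in turn. The 2844 calls in all (background 19.2%) were 1847 without YTHDF3 RIP replicate 3 and 1597 with the YTHDF1-ADAR libraries fitted alone.

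SIX2, a homeobox gene of kidney progenitors with 29 sites, had 21.1, 19.0 and 10.5 CPM in YTHDF2 RIP, against 99.2, 74.1 and 65.9 CPM in YTHDF3 RIP, with 17.0, 20.8 and 23.4 CPM at input. Its RNA was lower in YTHDF2 RIP by 2.23 ± 0.21 on the log2 scale (-2.23, adjusted p = 7.44e-10, edgeR), and only the YTHDF3 RIP stood apart from input. Its editing level was nonetheless the higher in YTHDF2 RIP, at 5.85% against 4.68% in YTHDF3 RIP and 3.87% at input. MYADM, a myeloid-associated membrane protein with 8 sites and an antisense partner that shares exon bases, had 21.6, 20.6 and 11.8 CPM in YTHDF2 RIP, against 95.4, 96.1 and 107 CPM in YTHDF3 RIP, with 23.8, 35.3 and 43.1 CPM at input. The YTHDF2 RIP libraries lay below all input libraries and the YTHDF3 RIP libraries above them, for a log2 fold change of -2.46 ± 0.20 between the pulldowns (adjusted p = 4.38e-11, edgeR). Its editing level was 6.21% in YTHDF2 RIP and 4.52% in YTHDF3 RIP, against 3.26% at input, so both pulldowns exceeded input although their RNA went opposite ways.

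MRFAP1 (5 sites), a small protein that interacts with the mortality factor proteins, was the opposite case. It had 1164, 805 and 1201 CPM in YTHDF2 RIP, against 199.8, 156 and 98.3 CPM in YTHDF3 RIP, with 169, 281 and 279.8 CPM at input. The log2 fold change between the pulldowns was 2.80 ± 0.29 (adjusted p = 8.51e-09, edgeR), and no library of the 2 groups overlapped. Its editing level was 3.08% in YTHDF2 RIP and 3.47% in YTHDF3 RIP, against 2.42% at input. CDK12, a kinase of RNA polymerase II, stood higher in YTHDF3 RIP, with 238, 286 and 124 CPM in YTHDF2 RIP, against 616, 510 and 381 CPM in YTHDF3 RIP, and its editing levels were 3.35% and 3.06%. In these 4 members the RNA differed between the pulldowns by 1.22 to 2.80 on the log2 scale, while the editing levels lay within 1.70 points of each other, and their calls between the pulldowns held with each library left out.

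The same genes were also read in the lines with the other fusions. The YTHDF2-ADAR table has 2199 genes with a value in every arm, of which 1920 are also members here, and the YTHDF3-ADAR table has 2763, of which 2443 are. Of the 1920, YTHDF1-ADAR cells had 73.3% above input in YTHDF2 RIP, whereas YTHDF2-ADAR cells had 49.4%. In YTHDF3 RIP the shares of these genes were 73.8% in YTHDF1-ADAR cells and 59.3% in YTHDF2-ADAR cells. Of the 209 with 5 or more sites in the YTHDF2-ADAR table the shares were closer, at 70.3% in YTHDF1-ADAR cells and 52.6% in YTHDF2-ADAR cells in YTHDF2 RIP, and at 70.3% and 64.6% in YTHDF3 RIP. Of the 2443, 76.2% were above input in YTHDF2 RIP in YTHDF1-ADAR cells, against 45.8% in YTHDF3-ADAR cells, and in YTHDF3 RIP 76.7% were above input in YTHDF1-ADAR cells, against 59.7% in YTHDF3-ADAR cells. Of the 352 with 5 or more sites in the YTHDF3-ADAR table, 76.4% in YTHDF1-ADAR cells and 59.1% in YTHDF3-ADAR cells were above input in YTHDF2 RIP, and 77.3% and 67.0% in YTHDF3 RIP. The median number of sites of these genes was 7 and 9 in YTHDF1-ADAR cells, against 1 in both other tables, so the sites can differ, and the difference between lines was not tested.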

How the data were processed

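RNA was sequenced from input and from YTHDF1, YTHDF2 and YTHDF3 RIP of 3 fusion lines, 36 libraries in 12 groups of 3, grouped by the labels; the 9 libraries of YTHDF2 RIP, YTHDF3 RIP and input in YTHDF1-ADAR cells carry the comparisons. Per the labels, libraries were rRNA-depleted, DNase-treated and made with a directional kit. Tools named in the submitters' processing notes are STAR 2.7.7, featureCounts 2.0.1 and DESeq2, with the build GRCh38/hg38. The deposited gene table holds read counts. Per the file headers, reads were counted without strand, with multimapping and overlapping reads kept and marked duplicates ignored, so overlapping genes, antisense genes and paralogs share counts. No column of the count table was left out (0 not used).

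The authors' deposited editing tables give a number of sites, a score per arm, a natural log odds ratio and an adjusted p-value per gene. A level in percent is 100 times the score over the site number. The odds ratio of that fraction matched the authors' natural log value within 1e-06 for all members above 0 in both arms (7255 for YTHDF2 RIP, 7326 for YTHDF3 RIP). How sites were called and filtered is not given in the sources used here. The authors' deposited DESeq2 table supplied gene symbols and biotypes; its log2 fold changes, made by the authors with DESeq2 for RIP against input, and its mean signal of normalized counts, also by the authors, were not used for any result.

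Counts were tested with edgeR 4.0.16 in R 4.3.3 (filterByExpr, TMM, glmQLFit with robust = TRUE, glmQLFTest, 12-group model), with Benjamini-Hochberg adjustment over 31849 genes and a limit of 0.05. The code was tested on simulated data. DESeq2 1.42.0, total counts, no filter, a replicate block, YTHDF1-ADAR libraries alone and each library left out were alternatives.

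The labels number replicates 1 to 3 in each group. Deviations of same-numbered YTHDF2 RIP and YTHDF3 RIP libraries from their group means correlated at 0.46, 0.24 and 0.55, but some with different numbers did as well (0.51 for YTHDF2 RIP 1 with YTHDF3 RIP 2, and 0.32 for YTHDF2 RIP 2 with YTHDF3 RIP 1). All values printed come from the model without the block, and with the block the calls between these pulldowns numbered 2783, against 2844 without it.

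The members and the 13 gene lists were chosen with earlier results of these data known. Named genes were, among members with 5 or more sites, the 8 highest and 8 lowest differences of each pulldown from input, the 5 highest and 5 lowest between pulldowns, the 8 with most sites, and, with any number of sites, the 5 highest and 5 lowest called log2 fold changes at a mean log2 CPM of at least 4 for each RNA comparison, the 3 with most sites of each list, and MALAT1, GAPDH, HPRT1, the 3 reader genes, MYC, ACTB, ADARB1, ADAR, METTL14, METTL3, CREBBP and SON.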

Additional observations from a re-analysis of the deposited data

How the results depend on the processing

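Editing levels are pooled and have unknown depth, so replicate error cannot be given, and genes with 1 site can rest on few reads. The share of members above input in YTHDF2 RIP was 77.6%; it was 82.8% with at least 2 sites, 90.2% with at least 5, 94.5% with at least 10 and 80.2% at a mean log2 CPM of at least 4, and 4.21% were higher by at least 5 points. In the same order, for YTHDF3 RIP against 75.8% in all members, the shares were 79.6%, 85.5%, 89.9%, 77.0% and 2.97%. For YTHDF2 RIP above YTHDF3 RIP, against 60.5% in all members, they were 63.5%, 68.5%, 72.4%, 62.8% and 1.87%.

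Called members in YTHDF2 RIP against input numbered 3290, and 2703 to 3292 with each library left out; 2184 were called with the YTHDF1-ADAR libraries alone. In YTHDF3 RIP they numbered 4087, and 3539 to 4313 with each library left out. Between the pulldowns they numbered 2844, and 1847 to 2681 with each library left out, the lowest without YTHDF3 RIP replicate 3; 1597 were called with the YTHDF1-ADAR libraries alone. The cause of these moves was not tested. Without both libraries that stood apart, a choice made after seeing the data, the counts were 3113, 4119 and 2947. The replicate block gave 3175, 4002 and 2783. In their deviations, same-numbered YTHDF2 RIP and input libraries correlated at -0.35, 0.31 and -0.16, and YTHDF3 RIP and input at -0.16, 0.25 and 0.12. These correlations were mixed in sign, and they cannot show whether same-numbered libraries came from the same lysate. Of 4392 recomputed log2 fold changes of named genes, 275 lost a call, 158 gained one, and no called value changed sign; the block alone lost 8 and gained 1.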
